A study of Mus musculus with 26 samples.

Results

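The 10 genes described here are 9 immediate early genes and Nr4a2, in single amacrine cells of the mouse retina. They are Fos, Jun, Junb, Jund, Ier2, Ier5, Btg2, Dusp1, Egr1 and Nr4a2, out of 18193 genes measured. Every probe set annotated to 1 of these genes was taken, 20 in all, and a gene stands here for its probe set with the top mean log2 signal over the 26 cells. Detection in a cell means a signal of 1000 or more, 2 times the trimmed mean of every array. Immediate early genes are transcribed within minutes of a stimulus, from factors already present in the cell, and many of their products are transcription factors that act on a later set of genes. In neurons they follow calcium entry and growth factor signals through the kinases that act on serum response factor and on CREB, and they also answer stress and the dissociation of tissue. The Nr4a genes encode nuclear receptors that are induced in the same way, but Nr4a2 is also held on in some neuron types as part of their identity.

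Each array carried the cDNA of 1 amacrine cell, an inhibitory interneuron of the inner retina, picked for its green fluorescence. The fluorescence came from GFP under a promoter of Ndrg4 (pNdrg4) or of Synapsin (pSynapsin), put into retinas at P0 by electroporation, either in the animal or in the dish. The 7 groups were 1 pSynapsin cell labelled E19, 2 pNdrg4 cells labelled P4, 4 pSynapsin cells at P5, 5 cultured pNdrg4 cells at P5, 10 pNdrg4 cells at P5 whose labels state no culture, 2 pSynapsin cells at P8 and 2 pNdrg4 cells at P8. Culture lasted 4 days for the E19 and P4 cells, 5 days for the cultured P5 cells and 8 days for the P8 cells. The E19 label stands beside a stated electroporation at P0, and the sources used here do not resolve this. All 26 cells shared the electroporated reporter, papain dissociation and picking by pipette, and no cell was measured without them. No label names an animal, a retina or a culture, so a group counts as 1 sample, no p-value was computed, and an SD is a spread over cells. All 26 cells had Pax6, a transcription factor of amacrine cells, above the detection level. The number of genes detected per cell ranged from 1909 to 4180 with a median of 3253.5, and the number of arrays limits the precision.

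Jund and Ier5 were detected in 13 and 12 of the 26 cells, and Fos, Egr1, Ier2 and Junb in 2, 1, 2 and 0. Btg2 was detected in 8 cells, Jun and Nr4a2 in 5 each and Dusp1 in 4. As shares these were 50.0% for Jund (Clopper-Pearson 95% interval 29.9 to 70.1, which covers counting error only), 46.2% for Ier5 (26.6 to 66.6), 30.8% for Btg2 (14.3 to 51.8), and 19.2% for Jun and for Nr4a2 (6.56 to 39.4). A probe set has its own sensitivity, so counts of different genes do not rank their levels. The cells nearest to the detection level were, below it, Egr1 at 634 in cell B1, Jund at 719.8 in cell A2 and Dusp1 at 902 in cell A6, and above it Jun at 1034 in cell A6, Jund at 1178 in cell B2, all of P5 pNdrg4 with no culture stated, and Jun at 1195 in P8 pNdrg4 cell A1. No more than 6 of the 260 values thus lay between 634 and 1195.

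**Figure D1:**
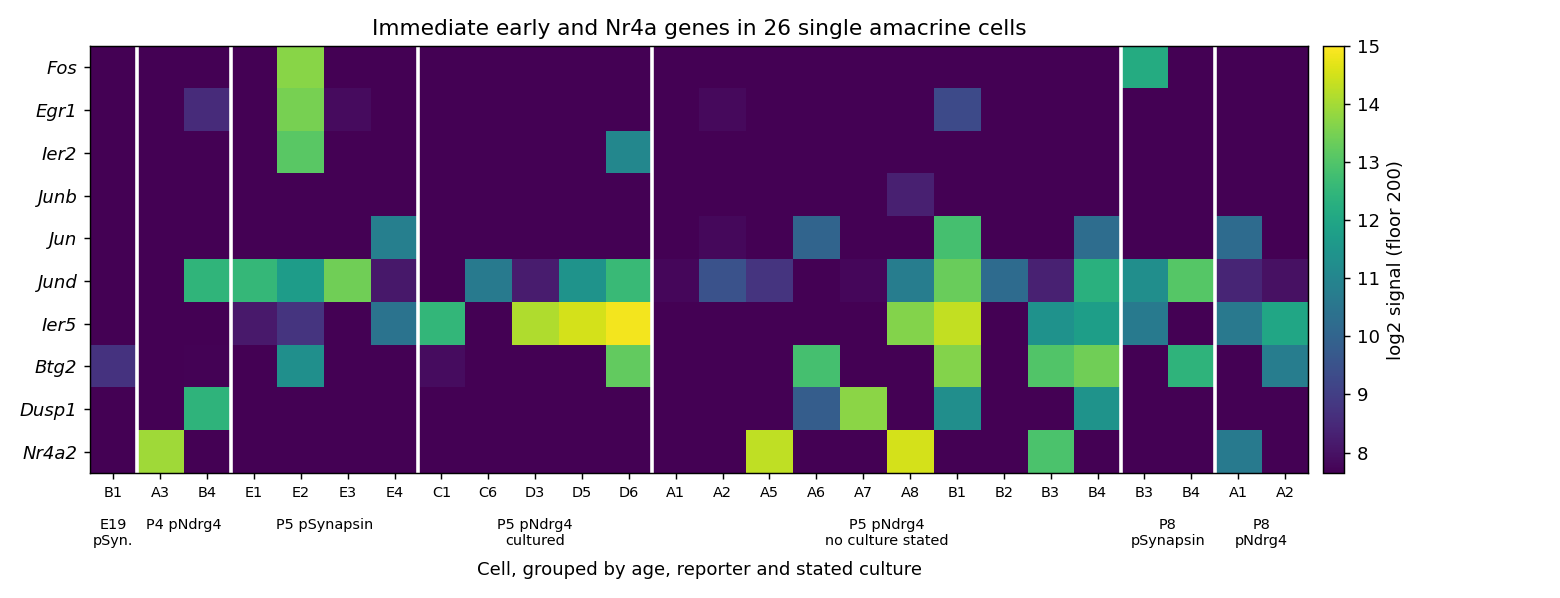
Log2 signal, raised to a floor of 200, of the representative probe set of each gene (down the page) in each of the 26 cells (across), grouped by age, reporter and stated culture. The rows of Jund and Ier5 are bright in 13 and 12 cells, those of Fos, Egr1 and Ier2 in 1 or 2, and that of Junb in 0.

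Fos, Egr1 and Ier2 met in 1 cell, the P5 pSynapsin cell E2. Fos, the partner of Jun proteins in the AP-1 transcription factor, read 14.0, 13336.5, 6.73 and 5.56 in P5 pSynapsin cells E1 to E4. It read 4583 and 24.8 in P8 pSynapsin cells B3 and B4, and at most 198.7 in the other 20 cells. Fos was therefore high in E2 and in P8 cell B3, and every pNdrg4 cell lay under 200. Egr1, a zinc finger transcription factor, read 11573 in E2. It was at most 370.9 in 24 cells and read 634 in cell B1 of P5 pNdrg4 with no culture stated. Ier2, a nuclear protein of the early growth factor response, read 8830.4 in E2 and 2132 in cultured P5 pNdrg4 cell D6, and at most 102.2 in the other 24 cells. Junb, a Jun family member, reached 311.7 in cell A8 of P5 pNdrg4 with no culture stated and lay between 2.94 and 57.8 elsewhere. Any of Fos, Egr1, Ier2 and Junb was detected in 3 of the 26 cells (11.5%, interval 2.45 to 30.2), and 23 cells had none.

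Jund was the Jun family gene with the most detected cells, and Jun was confined to 5 cells by its representative probe set. Jund, a Jun family subunit of AP-1 that is often present in resting cells, had group means of 7.64 log2 units in the E19 cell, 10.05 ± 3.40 in P4 pNdrg4 cells, 11.44 ± 2.32 in P5 pSynapsin cells, 10.12 ± 2.13 in cultured P5 pNdrg4 cells, 9.63 ± 1.99 in P5 pNdrg4 cells with no culture stated, 12.16 ± 1.26 in P8 pSynapsin cells and 8.19 ± 0.31 in P8 pNdrg4 cells (SD over cells, n = 1, 2, 4, 5, 10, 2 and 2). In the order of these means each pair of neighbouring groups overlapped in its cells, except P8 pNdrg4 and the single E19 cell. Its second probe set, 1440265_at, was detected in 0 cells and lay between 61.3 and 601 units. Jun, the founding AP-1 subunit, was detected with probe set 1448694_at in P8 pNdrg4 cell A1 (1195), P5 pSynapsin cell E4 (1795) and the cells A6 (1034), B1 (7246) and B4 (1242) of P5 pNdrg4 with no culture stated. Its other probe set, 1417409_at, was detected in 2 cells, at 1531 in cell A7 of the P5 pNdrg4 group with no culture stated and at 4511 in the E19 cell. The 2 Jun probe sets thus shared 0 cells, and 7 cells were detected by either, so which cells count as having Jun depends on the probe set. By representative probe sets, any of Jun, Junb and Jund was detected in 16 of 26 cells.

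Ier5, a nuclear protein of the growth and heat shock responses, was seen through 1 of its 3 probe sets. Probe set 1417612_at read 5827, 26.8, 17863, 23705 and 30156 in cultured P5 pNdrg4 cells C1, C6, D3, D5 and D6. In the 10 pNdrg4 cells of P5 with no culture stated it ranged from 8.81 to 20669 with a median of 25.3, and the cells A8 (12658), B1 (20669), B3 (2702) and B4 (3489) were above the detection level. In P5 pSynapsin cells E1 to E4 it read 285, 429.8, 42.5 and 1384. Cultured P5 pNdrg4 cells were thus high in 4 of 5, and pSynapsin cells of the same age lay below 4 of those 5. At P8 it read 1615 and 20.3 in pSynapsin cells and 1561 and 4107 in pNdrg4 cells, and in the P4 and E19 cells it stayed at or under 7.16. Probe set 1417613_at was detected in 0 cells (highest 258.3), and 1460009_at in 1 cell, at 2544 in cell B4 of P5 pNdrg4 with no culture stated, a cell that the representative probe set also detected.

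Nr4a2, a nuclear receptor that binds DNA without a known ligand, was seen by 4 of its 6 probe sets. Probe set 1455034_at read 20229 in cell A5, 23776.5 in cell A8 and 7677 in cell B3 of the P5 pNdrg4 group with no culture stated, 15987 in P4 cell A3 and 1617 in P8 pNdrg4 cell A1. It was at most 74.6 in the other 21 cells, so the high cells stood apart from the rest by more than an order of magnitude. All 5 carried pNdrg4, among 19 pNdrg4 cells, and none of the 7 pSynapsin cells did. Probe set 1450750_a_at read 20581 in A5, 2469 in A8, 19039 in B3 and 6349.9 in P4 cell A3, and 1447863_s_at read 23335 in A5, 2600.4 in A8, 19979 in B3 and 844.9 in P4 cell A3. Probe set 1450749_a_at was detected in A5 (4809) and B3 (1043). Cells A5 and B3 were thus detected by 4 probe sets, A8 by 3, P4 cell A3 by 2 and P8 cell A1 by 1, and no probe set detected a cell outside these 5. Probe sets 1433422_at and 1433423_at were detected in 0 cells (highest 484.8 and 145.8). The relatives Nr4a1 and Nr4a3 were detected in 0 of 26 cells, with highest signals of 276.5 and 414.2.

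**Figure D2:**
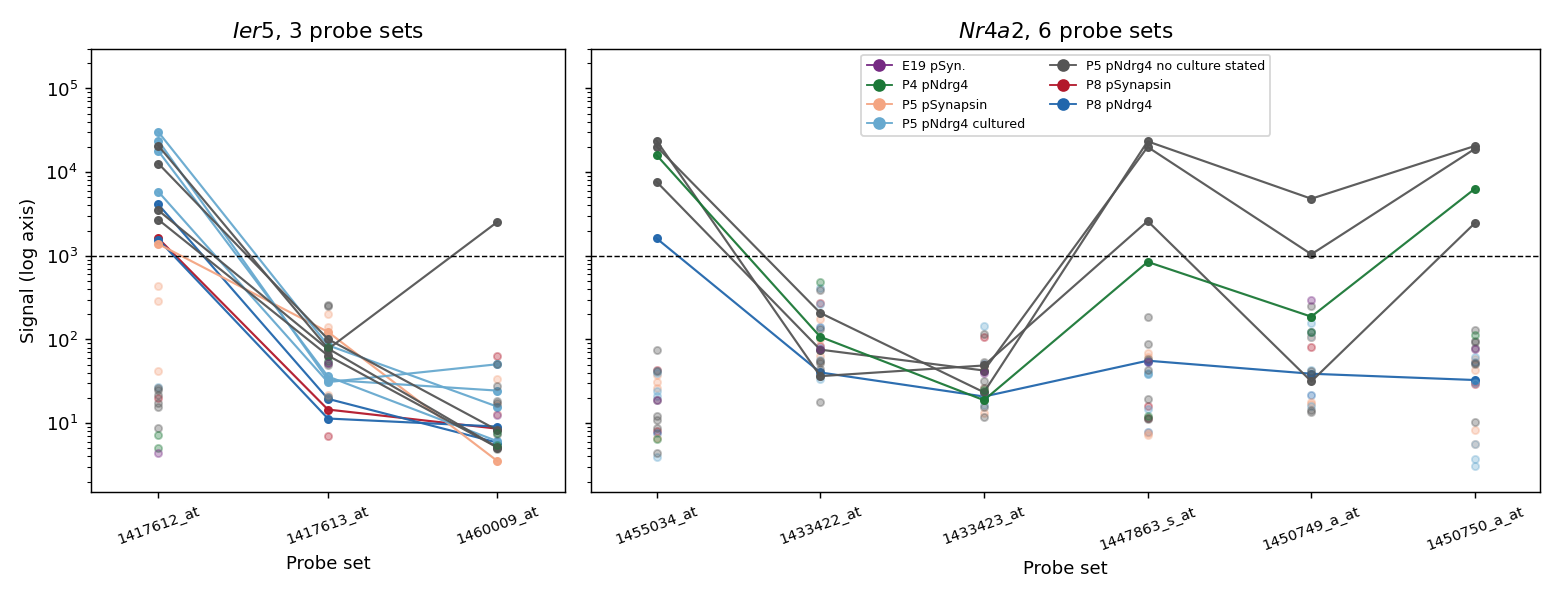
Signal on a log axis of every probe set of Ier5 (left) and Nr4a2 (right) in each of 26 cells, coloured by group. Lines join the probe sets of a cell detected by at least 1 of them, and the dashed line is the detection level of 1000. The Ier5 signal lies in 1417612_at, and in 1 cell also in 1460009_at. Nr4a2 is detected by 4 probe sets in A5 and B3, 3 in A8, 2 in P4 cell A3 and 1 in P8 cell A1.

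The 5 Nr4a2 cells were described by transmitter genes that the choice of members did not use. Gad1, which makes GABA, was detected in 4 of the 5, at 28786 in A5, 20606 in A8, 6639 in B3 and 6304 in P4 cell A3. P8 cell A1 had Gad1 at 12.4 and Slc6a9, the glycine transporter of glycinergic amacrine cells, at 13182, and Slc6a9 was at most 173.8 in the other 4. Gad2, which also makes GABA, was detected in 4 of the 5, against 14 of 26 cells in all. Among the 4 was P8 cell A1 at 2898, and Gad2 read 7.29 in A5. Tfap2b, a transcription factor of amacrine cells, was detected in 5 of 5, against 20 of 26 cells in all. In the midbrain Nr4a2 maintains dopaminergic neurons, but the dopamine genes Th, Ddc and Slc6a3 were detected in 0 of 26 cells (at most 13.2% by the interval). Slc18a2, the vesicular monoamine transporter, was detected in 2 cells, at 16423 in the E19 cell and at 3847 in P4 cell A3, which is 1 of the 5. Of the retinoid X receptors with which NR4A proteins can pair, Rxrb was detected in 9 cells, 2 of them with Nr4a2, Rxra in 1 cell and Rxrg in 0.

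Btg2, an antiproliferative cofactor induced by p53 and by growth factors, was detected in cells that also carried genes of other retinal cell types. It read 9709 in cultured P5 pNdrg4 cell D6 and 45.0 to 237 in the other 4. In the 10 pNdrg4 cells of P5 with no culture stated it read 7259 in A6, 12673.5 in B1, 8286 in B3 and 10903 in B4, and 13.5 to 86.0 in the other 6. It read 5503 in P8 pSynapsin cell B4, 1729 in P8 pNdrg4 cell A2 and 2556 in P5 pSynapsin cell E2. Both reporters and the ages P5 and P8 were thus represented, and within each of these 5 groups the cells fell into high ones and ones at or near the floor. No cell was high at the younger ages, with 426 in the E19 cell and at most 204.6 in the P4 cells. The second probe set, 1416250_at, was detected only in cell B1, at 1986.

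Rod and Muller glia markers moved with Btg2, and progenitor markers did so in part of its cells. Of 8 measured rod markers, 6 were detected in P8 pSynapsin cell B4, 6 in P8 pNdrg4 cell A2, 5 in E2, 1 in D6, 3 in A6, 3 in B1, 5 in B3 and 5 in B4. Of 9 Muller glia markers the same 8 cells had 4, 5, 5, 2, 6, 4, 4 and 6 detected. The medians were 5.0 rod and 4.5 Muller glia markers in the 8 cells with Btg2, against 1.0 (range 0 to 4) and 1.5 (range 0 to 4) in the 18 cells without it, so the ranges overlapped. Progenitor markers had a median of 1.0 (range 0 to 4) with Btg2 and 0.0 (range 0 to 2) without it. Of the cells with Btg2, P8 pNdrg4 cell A2, E2 and D6 had 0 progenitor markers. Over the 26 cells the log2 signal of Btg2 correlated with the number of rod markers detected (Pearson r 0.63), of Muller glia markers (0.62) and of 6 progenitor and cell cycle markers (0.62). All points share the scaling of their array, the groups differ in both measures, and a correlation over 26 cells is a description. Among the most similar genes by the naming rule were Gnb3, Sox2 and Prom1, of which Sox2, a transcription factor of progenitors and Muller glia as well as of some amacrine cells, read 5292 in E2, 34320.1 in B1, 17635 in B3 and 13185 in B4. Sox2 was at most 97.0 in the other cells with Btg2. The part of other cell types in the Btg2 signal was not tested. The defining rod gene Gnat1 was detected only in P8 pSynapsin cell B4 (9656) and P8 pNdrg4 cell A2 (4278), while the rod factor Nrl was detected in 6 of these 8 cells and not in B1 or D6. The glial genes Aqp4 and Apoe were detected in 0 of 26 cells, and so were all 6 microglia markers.

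**Figure D3:**
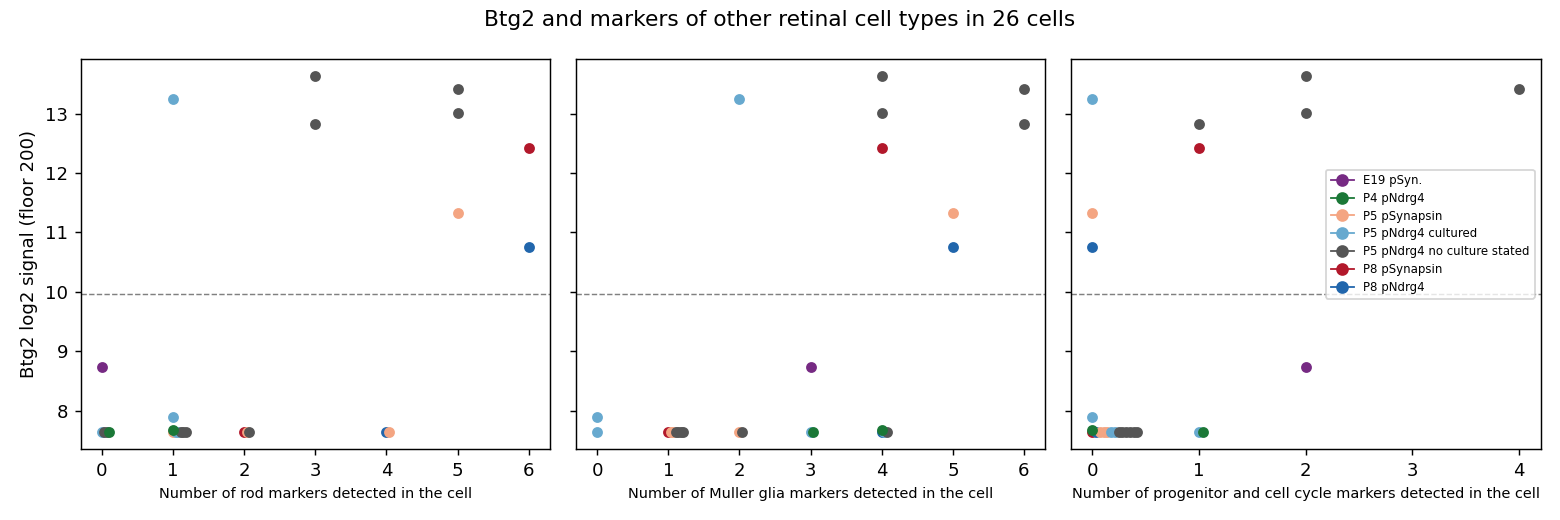
Log2 signal of Btg2, raised to a floor of 200, against the number of rod, Muller glia and progenitor markers detected in the same cell, for 26 cells coloured by group and moved slightly sideways where they coincide. The dashed line is the detection level. Cells with Btg2 have 1 to 6 rod markers and 2 to 6 Muller glia markers, and cells without it 0 to 4 of each. Progenitor markers number 0 to 4 in cells with Btg2 and 0 to 2 in cells without it.

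Dusp1, the phosphatase that switches off the MAP kinases p38 and JNK, was detected in 4 cells, all pNdrg4. It read 13589 in A7, 2461 in B1 and 2751 in B4 of the P5 cells with no culture stated and 5465 in P4 cell B4. Cell A6 lay just under the level at 902, and the other 21 cells read at most 147.9. The 3 P5 cells with Dusp1 were all in the group with no culture stated, where 7 cells lay under the level, and 0 of the 5 cultured P5 pNdrg4 cells reached it (highest 100.3). In B1 and B4 it was detected beside Jun, Jund, Ier5 and Btg2.

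Promoter windows of 250 bases upstream of the gene start were read for 8 of the 10 genes from RefSeq (build GRCm38.p6), with no entry for Ier2 and Egr1. The windows of Btg2 and Dusp1 are shown because they share the palindrome TGACGTCA, the CREB motif. Those of Fos and Nr4a2 are shown because they hold its core TGACG more than once. Capitals mark TGACG on either strand (CGTCA on the printed one), which lies inside TGACGTCA.
Btg2, chr1:134079156-134079405, minus strand: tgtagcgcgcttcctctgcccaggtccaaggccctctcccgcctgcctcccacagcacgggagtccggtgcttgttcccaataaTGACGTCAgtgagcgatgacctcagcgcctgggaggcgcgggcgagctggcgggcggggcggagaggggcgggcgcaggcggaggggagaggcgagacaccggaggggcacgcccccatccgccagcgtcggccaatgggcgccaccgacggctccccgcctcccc
Dusp1, chr17:26508473-26508722, minus strand: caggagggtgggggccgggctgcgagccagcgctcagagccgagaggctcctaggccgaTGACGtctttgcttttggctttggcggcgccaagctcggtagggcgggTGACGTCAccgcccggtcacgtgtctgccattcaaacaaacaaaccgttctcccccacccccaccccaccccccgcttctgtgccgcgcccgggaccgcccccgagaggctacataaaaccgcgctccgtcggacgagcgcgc
Fos, chr12:85473640-85473889, plus strand: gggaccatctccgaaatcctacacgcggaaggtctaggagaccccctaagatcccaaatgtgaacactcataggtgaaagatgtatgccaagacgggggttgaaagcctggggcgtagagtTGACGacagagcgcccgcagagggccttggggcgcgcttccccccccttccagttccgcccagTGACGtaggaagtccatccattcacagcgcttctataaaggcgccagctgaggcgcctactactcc
Nr4a2, chr2:57124004-57124253, minus strand: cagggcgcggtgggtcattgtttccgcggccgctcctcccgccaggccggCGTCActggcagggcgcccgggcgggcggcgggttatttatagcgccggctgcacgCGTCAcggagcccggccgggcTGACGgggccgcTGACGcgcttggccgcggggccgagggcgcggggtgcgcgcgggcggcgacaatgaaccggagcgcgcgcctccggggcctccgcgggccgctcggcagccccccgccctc
The full palindrome was found in 2 of the 8 windows and in 1.55% of 32851 RefSeq windows of this length. The core was found in 5 of 8 (Fos, Junb, Btg2, Dusp1 and Nr4a2) and in 17.8% of all windows, and the Nr4a2 window held it at 4 positions. The AP-1 motif TGACTCA, the CArG box of serum response factor and the NR4A motif AAAGGTCA were found in 0 of the 8 windows, and in 4.46%, 1.47% and 1.34% of all windows. Only these letter patterns within 250 bases were sought, so sites farther upstream or with other letters were not counted. The windows of Jun, Jund and Ier5 held no TGACG. A match describes the letters in these windows only, and its part in detection was not tested.

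Over all 26 cells the number of members detected had little correlation with the number of genes a cell showed. By representative probe sets 0 members were detected in 3 cells, A1 and A2 of P5 pNdrg4 with no culture stated and the E19 cell. In 9 cells 1 member was detected, in 6 cells 2, in 4 cells 3, in 1 cell 4 and in 3 cells 5. The other Jun probe set was detected in the E19 cell (4511) and in A7 of that P5 group (1531). The cells with 5 were E2 (Fos, Egr1, Ier2, Jund and Btg2) and the cells B1 and B4 of P5 pNdrg4 with no culture stated (Jun, Jund, Ier5, Btg2 and Dusp1 in each), and cell D6 had 4 (Jund, Ier2, Ier5 and Btg2). E2 and the pair B1 and B4 thus shared Jund and Btg2 and differed in the other 3 members. The number of members correlated with the number of genes detected at Pearson r 0.085 and Spearman rho 0.046 over 26 cells, which share array scaling. E2 showed 3462 genes, B4 3513 and B1 2249. B4 had the most genes of its group, which ranged from 1909 to 3513 with a median of 2361.5. Of 2670 genes detected in 1 or 2 cells, 6.40% were detected in E2, the cell that held all of Fos, Egr1 and Ier2. Of 2241 genes detected in 3 to 5 cells, 10.5% were detected in B1 and 20.5% in B4, which both held Jun and Dusp1. The other cells of their group had 8.12% to 11.9%. Of the genes detected in 1 or 2 cells, B4 had 9.81%, the highest share of the 26 cells. The part of this wider detection in the members of B4 was not tested.

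By class, Ier5 was found beside Slc6a9 in 9 of its 12 cells and beside Gad1 in 2 of 12, with phi coefficients of 0.39 and -0.48 over the 26 cells. Gad2 stood to Ier5 as Slc6a9 did, in 9 of 12 cells (phi 0.39), so the 2 GABA genes went in opposite directions. By its representative probe set, Jun was found beside Slc6a9 in 5 of 5 cells (phi 0.45). Its other probe set was detected in A7 of P5 pNdrg4 with no culture stated and in the E19 cell. These 2 cells had Slc6a9 at 241.9 and 27.9 and Gad1 at 8089 and 7943. Slc6a9 was detected in 14 of 26 cells, Gad2 in 14 and Gad1 in 11. Within the pNdrg4 cells of P5 with no culture stated, Ier5 was detected in A8 and B3, which had Gad1 at 20606 and 6639, and in B1 and B4, which had Slc6a9 at 16123 and 2877. Among cultured P5 pNdrg4 cells, Ier5 was detected in C1, D3 and D5, with Slc6a9 at 23213, 14042 and 12899.6, and in D6, where Slc6a9 was just under the level at 989.9. Cell C6, the cultured P5 pNdrg4 cell without Ier5, had Gad1 at 16149.5 and Slc6a9 at 109.4. Slc6a9 and Gad1 therefore varied together with culture and with Ier5, in opposite directions, and Gad2 did not follow Gad1. The part of transmitter class was not tested.

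**Figure D4:**
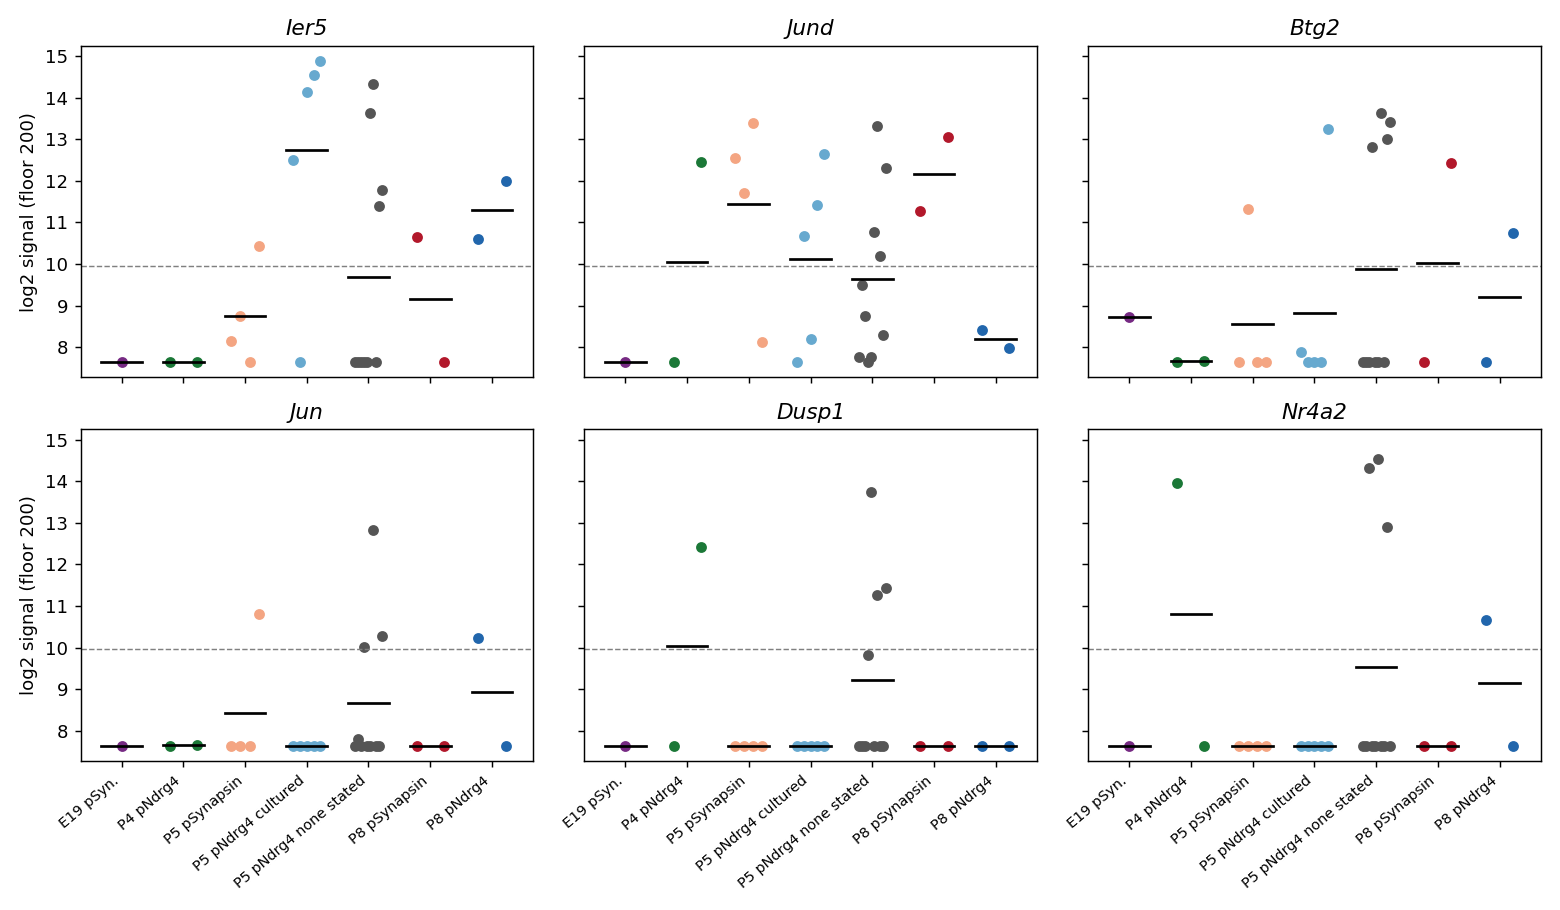
Log2 signal, raised to a floor of 200, of 6 genes in single cells (points) by group, with age increasing to the right; the black bar is the group mean and the dashed line the detection level. Ier5 is high in 4 of 5 cultured P5 pNdrg4 cells. Some groups hold cells above the detection level beside cells at the floor, and Jund also has cells in between. Other groups have every cell at the floor, as for Dusp1 in cultured P5 pNdrg4 cells.

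For culture, the 5 cultured and the 10 other pNdrg4 cells of P5 were compared, and Ier5 was the 1 member past the call rule, a difference of at least 2 log2 units between group means. Ier5 averaged 12.74 ± 2.99 log2 units in cultured cells and 9.70 ± 2.78 in cells with no culture stated (SD over cells, n = 5 and 10), a difference of 3.04, with 4 of 5 and 4 of 10 cells detected. The difference was -0.37, and no call, with the median over the 3 Ier5 probe sets, and 6.48 between group medians. The groups overlapped. Cultured cell C6 was at the floor, and the 4 detected cells with no culture stated lay between C6 and D6. Nr4a2 was detected in 0 of 5 cultured cells and 3 of 10 with no culture stated (difference -1.88), Dusp1 in 0 of 5 and 3 of 10 (-1.57), Jun in 0 of 5 and 3 of 10 (-1.03), and Btg2 in 1 of 5 and 4 of 10 (-1.06). The Btg2 difference was -2.17 without cultured cell D6 and -0.64 without cell B1 of the other group. Jund was detected in 3 of 5 and 4 of 10 (0.48, but -0.15 without D6 and -0.35 with quantile normalization) and Ier2 in 1 of 5 and 0 of 10 (0.68, and 0 without D6). Thus 1 of 10 members was called higher and 0 lower, where 7.36% of the 8570 genes detected in at least 2 cells were higher and 1.48% lower. The members' differences had a median of -0.12 (3 higher, 6 lower, 1 equal), against 0.31 over the 8570 genes. Of the 10 members 8 passed the filter of 2 cells, and Junb and Egr1 did not.

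Other measures moved with stated culture. The cultured cells had 3049 to 3925 genes detected and the cells with no culture stated 1909 to 3513. Summed signals of the 8 rod markers lay between 985 and 5918 in cultured cells and between 328 and 61328 in cells with no culture stated, and those of the 9 Muller glia markers between 676 and 24055 in cultured cells and between 5671 and 65587 in the others. Over the 26 cells the number of Muller glia markers detected correlated with log2 signal at r 0.62 for Btg2, 0.47 for Dusp1, 0.33 for Jun and -0.05 for Nr4a2. The number of rod markers did so at 0.63, 0.04, 0.22 and -0.13 for the same genes, and that of progenitor markers at 0.62, 0.31, 0.43 and 0.03. Their part in the lower counts of these 4 genes was not tested.

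Between reporters, Ier5 was lower and Jund higher in pSynapsin cells at both ages, with a call for Ier5 at both and for Jund at P8. At P5 Ier5 averaged 8.74 ± 1.21 log2 units in pSynapsin cells and 12.74 ± 2.99 in cultured pNdrg4 cells (n = 4 and 5), a difference of -3.99, with 1 of 4 and 4 of 5 cells detected and cell C6 as the overlap. With the median over the Ier5 probe sets it was 0 at both ages. At P8 it averaged 9.15 ± 2.13 in pSynapsin cells and 11.31 ± 0.99 in pNdrg4 cells (n = 2 each), a difference of -2.16. That value was -0.65 without pSynapsin cell B4 and -1.46 without pNdrg4 cell A2, and the pSynapsin signals (1615 and 20.3) overlapped the pNdrg4 signals (1561 and 4107). Jund read 2466 and 8521 in P8 pSynapsin cells and 339.0 and 251 in P8 pNdrg4 cells, a difference of 3.97, and of 3.08 to 4.87 with 1 cell left out. With 2 cells in each group the lack of overlap carries little weight, and its share over all genes was not counted. At P5 the Jund signals overlapped, with 5991, 3358, 10766 and 278 in pSynapsin cells and 60.6, 1634, 293.4, 2751 and 6365 in cultured pNdrg4 cells (difference 1.33, and 2.44 without pSynapsin cell E4).

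Fos was also called at P8 (2.26), a difference that was carried by pSynapsin cell B3 and was 0.00 without it. Differences of Fos and Egr1 at P5 were 1.51 each and came from cell E2, and in P5 pSynapsin and cultured P5 pNdrg4 cells alike Dusp1 and Nr4a2 were at the floor. At P5, 0 members were called higher and 1 lower, where 6.02% of 8570 genes were higher and 4.25% lower. At P8, 2 were called higher and 1 lower, where 11.0% of genes were higher and 9.98% lower. The members' median difference was 0.34 at P5 and 0.00 at P8, against 0.00 over all tested genes at both ages. The 2 reporter comparisons share no cells. Markers of other cell types moved with the reporter at P5, where 4 of 8 rod markers were called higher in pSynapsin cells (median 2.11) and 3 of 8 amacrine markers lower (median -1.13), namely Tfap2b (-3.55), Tfap2a (-3.10) and Gad2 (-2.45). The summed rod marker signal lay between 7494 and 58444 in P5 pSynapsin cells and between 985 and 5918 in cultured P5 pNdrg4 cells. At P8 0 rod markers were called, and 1 of 8 amacrine markers was lower (Tfap2b, -2.07). The part of these markers in the reporter differences was not tested.

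By age, no member was called between P8 and cultured P5 cells of the same reporter. The P8 cells had 8 days of culture and the P5 cells 5, so age and time in culture cannot be told apart. With 1 cell left out, 4 members were called in pNdrg4 cells for at least 1 choice of that cell (Ier5, Jun, Jund and Nr4a2) and 3 in pSynapsin cells (Btg2, Egr1 and Fos). Jund was detected in 0 of 2 P8 pNdrg4 cells and 3 of 5 P5 pNdrg4 cells, a difference of -1.93 that passed 2 log2 units without P8 cell A1 (-2.14) or P5 cell C1 (-2.54) or D3 (-2.41), and in 2 of 2 P8 and 3 of 4 P5 pSynapsin cells (0.72, but -0.18 without P8 cell B4 and -0.39 without P5 cell E4). Ier5 differed by -1.43 in pNdrg4 cells and by 0.41 in pSynapsin cells (-1.10 without P8 cell B3). Between group medians, Jund (-2.49) and Ier5 (-2.82) were called lower at P8 in pNdrg4 cells, and Fos (2.26) and Btg2 (2.39) higher in pSynapsin cells. Nr4a2 differed by 1.51 in pNdrg4 cells through P8 cell A1, and Btg2 by 0.39 in pNdrg4 and 1.47 in pSynapsin cells, turning to -1.17 without P8 pNdrg4 cell A2 and to -0.92 without P8 pSynapsin cell B4. Egr1 (-1.51) and Ier2 (-1.37) differed in pSynapsin cells through P5 cell E2. In pNdrg4 cells 10.2% of the 8570 genes were higher and 5.82% lower by 2 log2 units, and in pSynapsin cells 9.44% and 6.57%. In pNdrg4 cells 6 of 8 rod markers were called higher at P8 (median 2.92), with summed signals of 25291 and 37762 in the P8 cells and 985 to 5918 in the cultured P5 cells. Of 9 Muller glia markers 3 were called higher there, and in pSynapsin cells 2 rod markers and 1 Muller glia marker were. Their part in the age differences was not tested. The age and reporter comparisons share their cells, so their differences are not independent of each other.

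**Figure D5:**
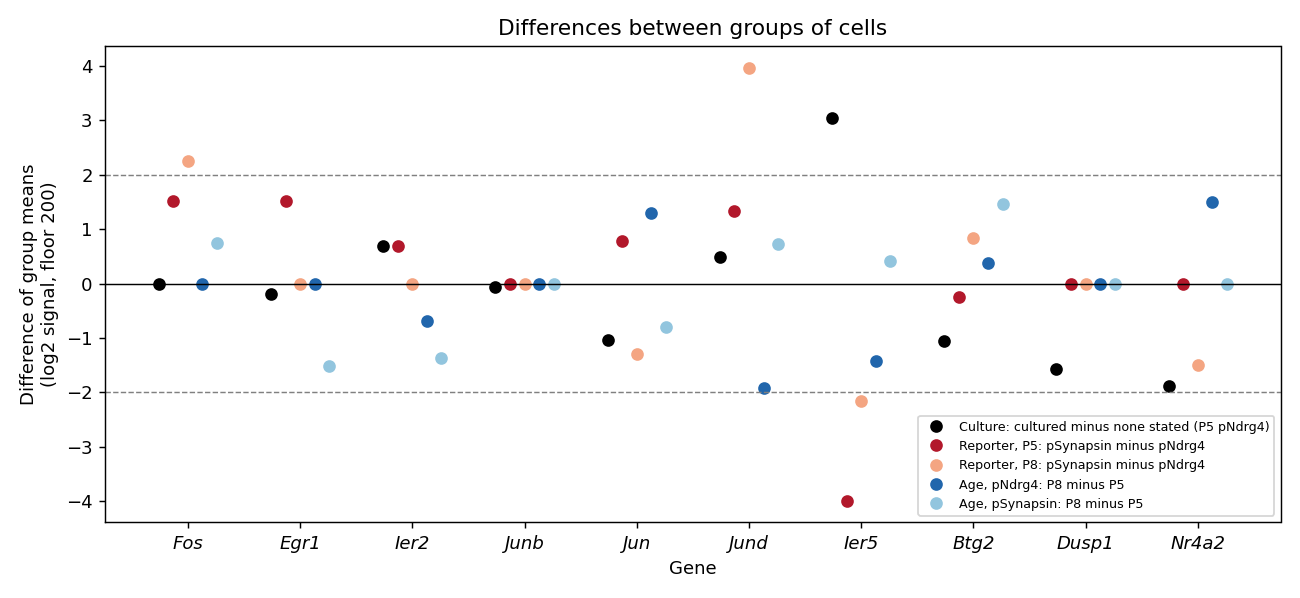
Difference of group means of log2 signal (floor 200) for the 10 genes in 5 comparisons, each as the group named before "minus" less the other. Dashed lines mark 2 log2 units. Ier5 lies above the upper line for culture and below the lower one for both reporter comparisons, and Jund and Fos lie above it for the P8 reporter comparison.

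Of 59 other immediate early genes measured, 30 (50.8%) were detected in at least 1 cell, 17 in at least 2 and 11 (18.6%) in at least 5. Over all 18193 genes the shares were 55.9% in at least 1 cell and 32.7% in at least 5. Of the genes on this list that follow neuronal activity, Fosb, Egr2, Egr3, Egr4, Arc and Npas4 were detected in 0 of 26 cells. Others of that kind were detected, Bdnf and Nptx2 in 1 cell each, Homer1 in 5 and Pcdh8 in 10. Detected in at least 5 cells were Btg1 (24 cells), a relative of Btg2, the survival factor Mcl1 (14), the growth arrest genes Gadd45a (12) and Gadd45g (7), the protocadherin Pcdh8 (10), Ifrd1 (9), the MAP kinase phosphatase Dusp4 (6), Rgs2 (6), the clock gene Per1 (5), the synaptic scaffold gene Homer1 (5) and Nfkbia (5). In the culture comparison 2 of the 59 were higher by at least 2 log2 units and 1 lower, with a median of 0.00, where 7.36% of the 8570 tested genes were higher and 1.48% lower. Of the 59, 17 passed the filter of 2 cells, and the 3 called genes are given as values. Mcl1 (2.40) was detected in 5 of 5 cultured cells and 2 of 10 with no culture stated, and Pcdh8 (2.71) in 3 of 5 and 1 of 10. Gadd45g (-3.81) was detected in 0 of 5 and 7 of 10, and its 7 cells were all in the group with no culture stated. Its signals there were 8115 in A5, 13089 in A6, 12066 in A8, 21174 in B1, 6008 in B2, 8864 in B3 and 2616 in B4. Each cell of that group with Btg2, Ier5 or Nr4a2 was among these 7 of 10, while A7, a cell with Dusp1, was not. No cell of another group had Gadd45g detected, whether or not it had Btg2, Ier5 or Nr4a2.

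Of 25 measured genes of the pathways that act on immediate early promoters, 18 (72.0%) were detected in at least 5 cells, against 32.7% of all genes, among them the kinases Mapk14 (18 cells), Mapk10 (15) and Camk2b (13), the coactivators Crebbp (16) and Crtc1 (12), Creb1 (9), Srf (8) and Elk1 (7). The others were Mef2d (13), Atf2 (11), Map2k2 and Mef2a (10 each), Mapk9 (9), Mapk8 (8), Map2k1 (7), Rps6ka3 (6), Mrtfb (5) and Ep300 (5). In the culture comparison 1 was called higher, Mef2a (3.09, in 3 of 5 cultured cells and 0 of 10 with no culture stated), and 0 lower, with a median of 0.17, beside 7.36% higher and 1.48% lower among the 8570 genes. In the P5 reporter comparison 4 were called higher in pSynapsin cells, Mrtfb (2.59), Mef2d (2.49), Rps6ka3 (2.25) and Ep300 (2.06), and 0 lower, with a median of 0.265, beside 6.02% higher and 4.25% lower among the 8570 genes. Of 9 measured heat shock genes, Hspa8 and Hsp90aa1 were detected in 26 of 26 cells, Dnaja1 in 23, Hspa5 in 19, Dnajb1 in 13 and Hsph1 in 12. Hspa1a, Hspa1b and Hspb1 were detected in 0. Hsph1 (3.11) and Hspa5 (2.04), 2 of the 9, were called higher in cultured P5 pNdrg4 cells than in those with no culture stated, the comparison in which 7.36% of all tested genes were higher.

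The genes whose pattern over the 26 cells was most like that of a member were taken by Pearson r of log2 signals among 7501 genes detected in at least 3 cells. For Nr4a2 these were Atp2b1 (r 0.85), a calcium pump of the plasma membrane, Fam207a (0.77) and Aspscr1 (0.74). Atp2b1 was detected in all 5 Nr4a2 cells, at 12362 in A5, 3490.0 in A8, 3072 in B3, 3896 in P4 cell A3 and 3371 in P8 cell A1, and in 2 further cells. For Ier5 they were Frem1 (0.69), A930033C23Rik (0.68) and Nfrkb (0.67), and Frem1 was detected in 9 of the 12 Ier5 cells and in 10 cells in all. For Jun they were Homez (0.87), Rprd2 (0.75) and Rmc1 (0.75), for Jund H2ac19 (0.73), Akt2 (0.65) and Eif3b (0.64), and for Dusp1 Chac2 (0.78), Ttbk2 (0.73) and Efna1 (0.73). For Btg2 they were Gnb3 (0.69), Sox2 (0.68) and Prom1 (0.67). Each r is the highest of many over 26 cells that share array scaling, and for members detected in 4 or 5 cells it rests on those few cells.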

How the data were processed

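Each of 26 single cells was measured on its own Affymetrix Mouse 430 2.0 array after 35 cycles of PCR, per the labels' protocols. The deposited intensity of a probe set is a linear signal computed by the authors in MAS5 (per the submitters' processing notes), in a version not given in the sources used here. The trimmed mean (2% off each end) was 500 on every array, so no scaling was added.

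Python 3.11.15, numpy 2.4.6, pandas 2.3.3 and scipy 1.17.1 were used. The platform annotation gave 34958 of 45101 probe sets 1 gene, 932 several and 9211 none; 64 controls were left out. A gene's representative was its probe set of highest mean log2 signal, after raising signals to a floor of 200, which shortens differences. Group means were compared over 8570 genes detected (signal of 1000 or more) in at least 2 cells, and a call is 2 log2 units, or 4 times. The code was checked on simulated data. Members, lists, comparisons and naming rules were chosen with earlier results of these data known. All members were named, and other list genes if detected in at least 5 cells or past 2 log2 units for culture or the P5 reporter; undetected genes and markers were named after their values were seen. Alternatives were floors of 50 and 500, quantile and 75th percentile scaling, the median or highest probe set, group medians, detection at 500 and 2000, and leaving out each cell.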

Additional observations from a re-analysis of the deposited data

Results flagged for a closer look

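In groups of 4 to 10 cells, 10 of 19 combinations of member and group with a spread held a cell whose gap to the next exceeded Dixon's 95% critical value. In 6 of the 10 every other cell lay at the floor of 200, so the gap was the whole range by construction, and the rate of about 1 in 20 that holds for unfloored values does not apply. The cells are therefore given as values only. In the P5 pSynapsin group, cell E2 stood apart for Fos (13336.5), Egr1 (11573), Ier2 (8830.4) and Btg2 (2556), and cell E4 for Jun (1795). In the cultured P5 pNdrg4 group, cell D6 stood apart for Ier2 (2132) and Btg2 (9709). In the P5 pNdrg4 group with no culture stated, cell B1 stood apart for Jun (7246) and Egr1 (634), and cell A8 for Junb (311.7), the last 2 of these signals being under the detection level.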

How the results depend on the processing

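The median of the 10 members' differences, -0.12 for culture, was -0.50 with a floor of 50, -0.02 with a floor of 500, -0.36 with quantile normalization, -0.28 with the median over probe sets, 0 with group medians and -0.17 to -0.05 with 1 cell left out; for the P5 reporter, 0.34, it lay between 0 and 0.82. The Ier5 culture difference, 3.04, became -0.37 with the median over its 3 probe sets, of which 1 is never detected and 1 in 1 cell; with that choice member detections numbered 32 in place of 52, and Ier5 was called in no comparison; between group medians it was 6.48. With each cell left out, the culture difference of Ier5 ranged from 2.50 to 4.31, its P5 reporter difference from -5.27 to -3.46, and the age difference of Jund in pNdrg4 cells, -1.93, from -2.54 to -1.30, a call without P8 cell A1 or P5 cell C1 or D3. Each of the 5 comparisons had 2 to 4 members that were called only with some cell left out, for culture Btg2 (-2.17 without D6) and Nr4a2. The Nr4a2 difference, -1.88, passed 2 log2 units without any 1 of 7 cells of the group with no culture stated (-2.09). With a floor of 50, Nr4a2 (-2.54) and Dusp1 (-2.13) were called lower with culture, which gave 2 calls lower in place of 0. With a floor of 500 the P8 reporter calls of Fos (1.60) and Ier5 (-1.49) were lost. With group medians 2 members were called lower by age in pNdrg4 cells and 2 higher in pSynapsin cells, in place of 0. Cells with at least 3 members numbered 5 with detection at 2000 and 8 at 1000. No paired analysis was possible because cell names recur between groups without naming a shared animal or culture, and no comparison between groups was tested.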
